A study of Mus musculus with 6 samples.

Results

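The cells described here, called Gsdmc4 and Aadac cells, were chosen by their transcripts among single epithelial cells of mouse ileal crypts. A cell was selected when at least 3 of the 6 genes Aadac, Gsdmc2, Gsdmc4, Rbp7, Akr1c19 and Dmbt1 had at least 2 transcripts each, counted as unique molecular identifiers (UMIs), tags that let each captured transcript be counted once. Fabp6, a marker of mature ileal enterocytes, had to stay under 0.1% of the cell's UMIs, 8 mitosis genes (Mki67, Top2a, Ccnb1, Cdk1, Birc5, Ube2c, Cenpf and Hmmr) together under 0.1%, and 6 goblet cell genes (Muc2, Fcgbp, Clca1, Zg16, Tff3 and Agr2) together under 1%. Cells with any UMI of the stem cell gene Lgr5 were left out. Of 8422 barcodes kept as cells (at least 5000 UMIs and 500 genes, at most 20% mitochondrial UMIs), 1526 met the rule, between 208 and 380 in each of 6 libraries.

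The libraries came from mice on the C57BL/6J background. In 3 libraries Fpr2 carried flanking loxP sites and no Cre was present (Fpr2f/f, labelled WT), and 3 were from Fpr2VKO mice, in which the Cre recombinase under the Villin promoter was meant to delete Fpr2 throughout the intestinal epithelium, the selected cells included. Crypt cells were sorted by the surface protein EpCAM before droplet capture. Fpr2 encodes a receptor for formyl peptides, which are released by bacteria and damaged mitochondria.

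Enterocytes arise from Lgr5 stem cells at the crypt base, pass through a few rounds of division as transit-amplifying cells, leave the cell cycle near the top of the crypt and gain the enzymes and transporters of the brush border as they move onto the villus. Retinol, alcohols, esters and many foreign compounds are taken up and converted in these cells. Aadac encodes an esterase of the endoplasmic reticulum, Akr1c19 an aldo-keto reductase, Rbp7 a cellular retinol-binding protein and Dmbt1 a secreted scavenger receptor of the mucosa, and Gsdmc2 and Gsdmc4 encode gasdermins, proteins whose cleaved amino-terminal part can form membrane pores.

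The libraries held 90142126 to 189516114 UMIs over all barcodes, and barcodes under 100 UMIs, taken as free RNA, held 7.25% to 13.1% of them. The selected cells were deep, with library medians of 26424.5 to 43278.5 UMIs against 8392 to 20133 in the other kept cells, and their summed counts reached 6592035 to 11356532 UMIs a library. Levels below are counts per 1000000 (CPM) of the summed UMIs of a cell class in a library, and the spread is the SD over 6 libraries unless a group is named. No pair of libraries shared more than 9 kept barcodes or more than 1 barcode of the selected cells. Some pairs shared more kept barcodes than expected by chance and others fewer. The most were 9 against 1.4 expected, in Fpr2f/f replicate 2 and Fpr2VKO replicate 2. Fpr2 had 0 UMIs in all barcodes of every library, Fpr2f/f included, so the deletion could not be checked in these counts. By quantitative PCR the study reported less Fpr2 mRNA in small intestinal villi and crypts of Fpr2VKO mice. It also reported less of the protein in their ileal organoids. In the selected cells a count of 0 allowed up to 0.264 to 0.455 CPM, depending on the library (counting error only).

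The 6 genes that chose the cells were not all at their highest in them. The classes set beside them were cells within every limit of the rule but 1, whatever their number of markers: cycling cells were over the mitosis limit (631 of 1828 held at least 3 markers), Fabp6 cells over the Fabp6 limit (258 of 463) and Lgr5 cells had an Lgr5 UMI (105 of 835). The rule asks for these markers in the selected cells alone, which raises their levels there, so the levels are a description and support nothing. Aadac, on chromosome 3 (mm10, GENCODE M21: 60025717 to 60040160, plus strand), averaged 296 ± 41.4 CPM in the selected cells, 145 ± 45.5 in cycling cells and 78.9 ± 22.7 in Fabp6 cells. Gsdmc4, on chromosome 15 (63891264 to 63912297, minus strand), averaged 146 ± 36.5 in the selected cells and 257 ± 50.9 in Fabp6 cells, where it was higher in 6 of 6 libraries. Akr1c19 (chromosome 13, 4228700 to 4252843, plus strand) was higher in Fabp6 cells too, 239.7 ± 36.8 against 186 ± 14.8, in 6 of 6 libraries. Gsdmc2 (chromosome 15, 63824346 to 63845177, minus strand) was higher in Fabp6 cells in 5 of 6 libraries, with 81.5 ± 19.2 in the selected cells and 142 ± 44.9 in Fabp6 cells. The gasdermins and the aldo-keto reductase thus had higher levels in the class with Fabp6, where the rule did not ask for them. Rbp7 (chromosome 4, 149449687 to 149454978, minus strand) reached 93 ± 19.5 in cycling cells and 84.9 ± 12.2 in the selected cells, and Dmbt1 (chromosome 7, 131032053 to 131121630, plus strand) reached 1474 ± 368 and 1472 ± 421. For these 2 genes the cycling and the selected cells overlapped from library to library.

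**Figure D1:**
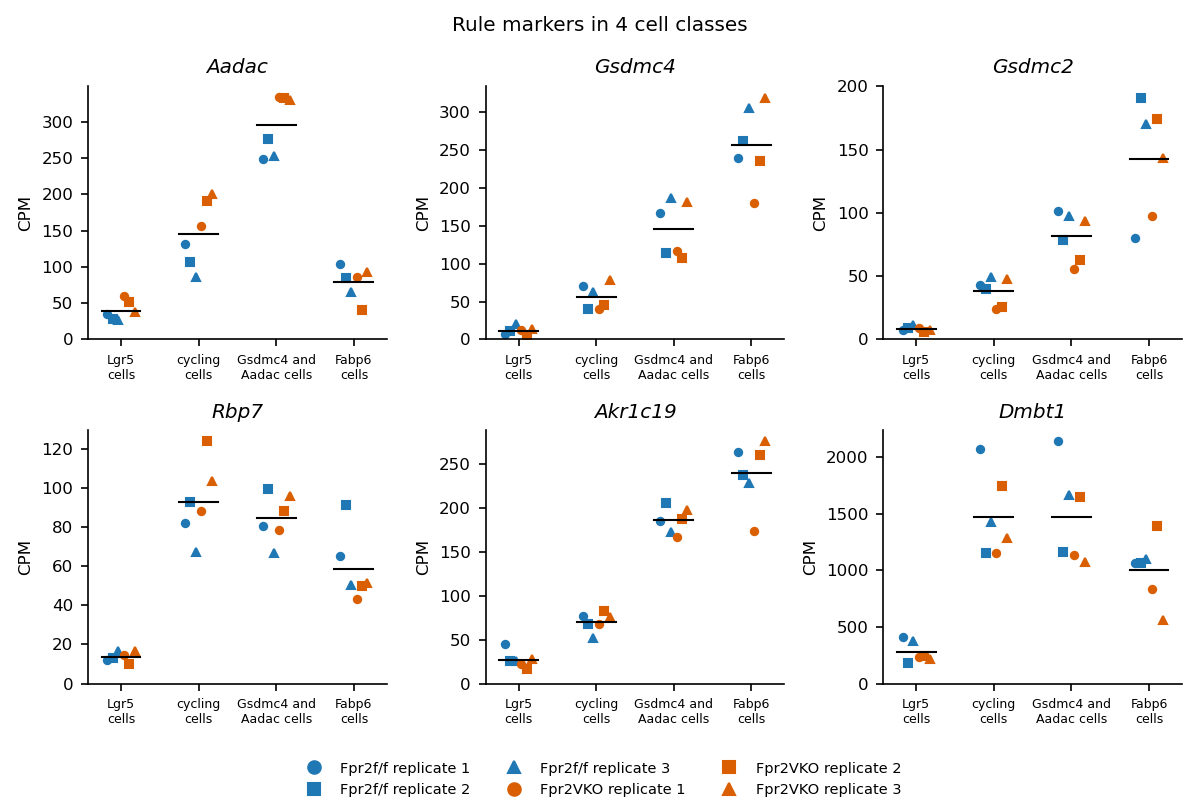
CPM (vertical axis, linear from 0) of the 6 rule markers in 4 cell classes (horizontal axis); each point is 1 library, black bars are means over 6 libraries. The rule required at least 3 of these genes in the Gsdmc4 and Aadac cells alone, where Aadac has its highest mean (296), whereas Gsdmc4, Gsdmc2 and Akr1c19 have their highest mean in Fabp6 cells (257, 142 and 239.7).

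Gsdmc2, Gsdmc3 and Gsdmc4 lie next to each other on chromosome 15 and are near copies. The longest annotated coding transcript of Gsdmc4 shared 38.0% of its stretches of 31 bases with that of Gsdmc2, and that of Gsdmc2 shared 50.1% with that of Gsdmc3, so the split of reads between them is uncertain. Gsdmc3, not used by the rule, averaged 28.7 ± 8.33 CPM in the selected cells and 66.2 ± 25.7 in Fabp6 cells, the order seen for Gsdmc2 and Gsdmc4. Gsdmc itself was close to 0, at 0.14 or below in every library. Gsdmd, a gasdermin elsewhere in the genome, averaged 25.3 ± 6.94 in the selected and 6.84 ± 2.08 in cycling cells.

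The rule favours deep cells, because 2 UMIs of a gene are reached more easily there. The selected cells were chosen on these same UMIs at full depth. Thinning them afterwards does not undo that choice, so the shares of cells are a description. When each cell was thinned at random to 5000 UMIs, Aadac had at least 1 UMI in 56.5% to 74.2% of the selected cells across libraries, in 22.8% to 47.3% of cycling cells and in 11.8% to 26.8% of Lgr5 cells. Immune cells, which should lack Aadac, had a UMI in 0% to 10.5% at that depth. Dmbt1 had a UMI in 92.3% to 99.3% of the selected and 84.7% to 96.8% of cycling cells but also in 13.2% to 36.8% of immune cells. Rbp7 had a UMI in 26.8% to 34.9% of the selected and 20.5% to 38% of cycling cells. Gsdmc4 had a UMI in 31.6% to 50% of the selected and 31.3% to 65.1% of Fabp6 cells. Of 208 immune cells, 2 had at least 3 of the 6 markers at full depth. Against free RNA in the same library, the selected cells held 3.31 to 4.48 times as much Aadac and 4.54 to 6.28 times as much Gsdmc4 in CPM. The ratio was 3.74 to 5.8 for Akr1c19, 2.35 to 3.56 for Gsdmc2, 2.56 to 3.49 for Rbp7 and 1.8 to 2.96 for Dmbt1.

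Genes beyond the 6 markers described an absorptive cell. These values describe the chosen cells and carry no test, since the rule chose cells by transcripts. Among genes with a mean of at least 100 CPM that were higher than in the other kept cells in 6 of 6 libraries, the 25 with the largest ratio ran from Reg1, 11.6 times the level of the other cells, down to Tm6sf2, 4 times. Of the 25, Aadac was itself a rule marker (4.09 times) and the other 24 were not used by the rule. They included brush border enzymes (Sis, sucrase-isomaltase, 5.18 times, and the metalloprotease Mep1b, 4.29 times), genes of fat handling (Fabp1, a fatty acid-binding protein, 10.9 times, and Mttp, which loads lipoproteins, 4.13 times) and genes of retinoid and alcohol conversion (Rbp2 7.2, Aldh1a1 6.12, Adh6a 6.84 and Adh1 4.44 times). The carboxylesterases Ces1f, Ces2e and Ces2c and the sulfotransferase Sult1b1 were 4.87, 4.39, 4.26 and 4.22 times higher. Genes of another kind stood in the same list: Il18, an inflammasome cytokine (6.78 times), Casp6, a caspase (4.09 times), Arg2, a mitochondrial arginase (6.34 times), and Reg3a, an antimicrobial lectin (5.26 times).

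These leading genes fell into different courses across the cell classes. Sis averaged 151 ± 57 CPM in cycling cells, 1367 ± 314 in the selected cells and 1547 ± 711 in Fabp6 cells, where 2 of 6 libraries were lower than the selected cells. Mep1b and the sialyltransferase St3gal4 were higher still in Fabp6 cells, going from 268 ± 37.2 to 455 ± 107 and from 1828 ± 168 to 2587 ± 533, in 6 of 6 libraries. Reg3b, which encodes an antimicrobial lectin, did so too, from 9972 ± 4407 to 22546 ± 9674. A second course peaked in the selected cells. Fabp1 averaged 58.8 ± 53.3, 1032 ± 729.9 and 128 ± 169 in cycling, selected and Fabp6 cells and was above Fabp6 cells in 5 of 6 libraries. Rbp2 averaged 335 ± 201 in the selected and 46.9 ± 19.2 in Fabp6 cells, Casp6 265 ± 66.6 and 51.6 ± 24.4, and Arg2 427 ± 111 and 165 ± 49.5, each above Fabp6 cells in 6 of 6 libraries. Reg1, Fabp1 and Rbp2 varied widely between libraries, with ranges of 37 to 916, 363 to 2271 and 130.3 to 648.

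**Figure D2:**
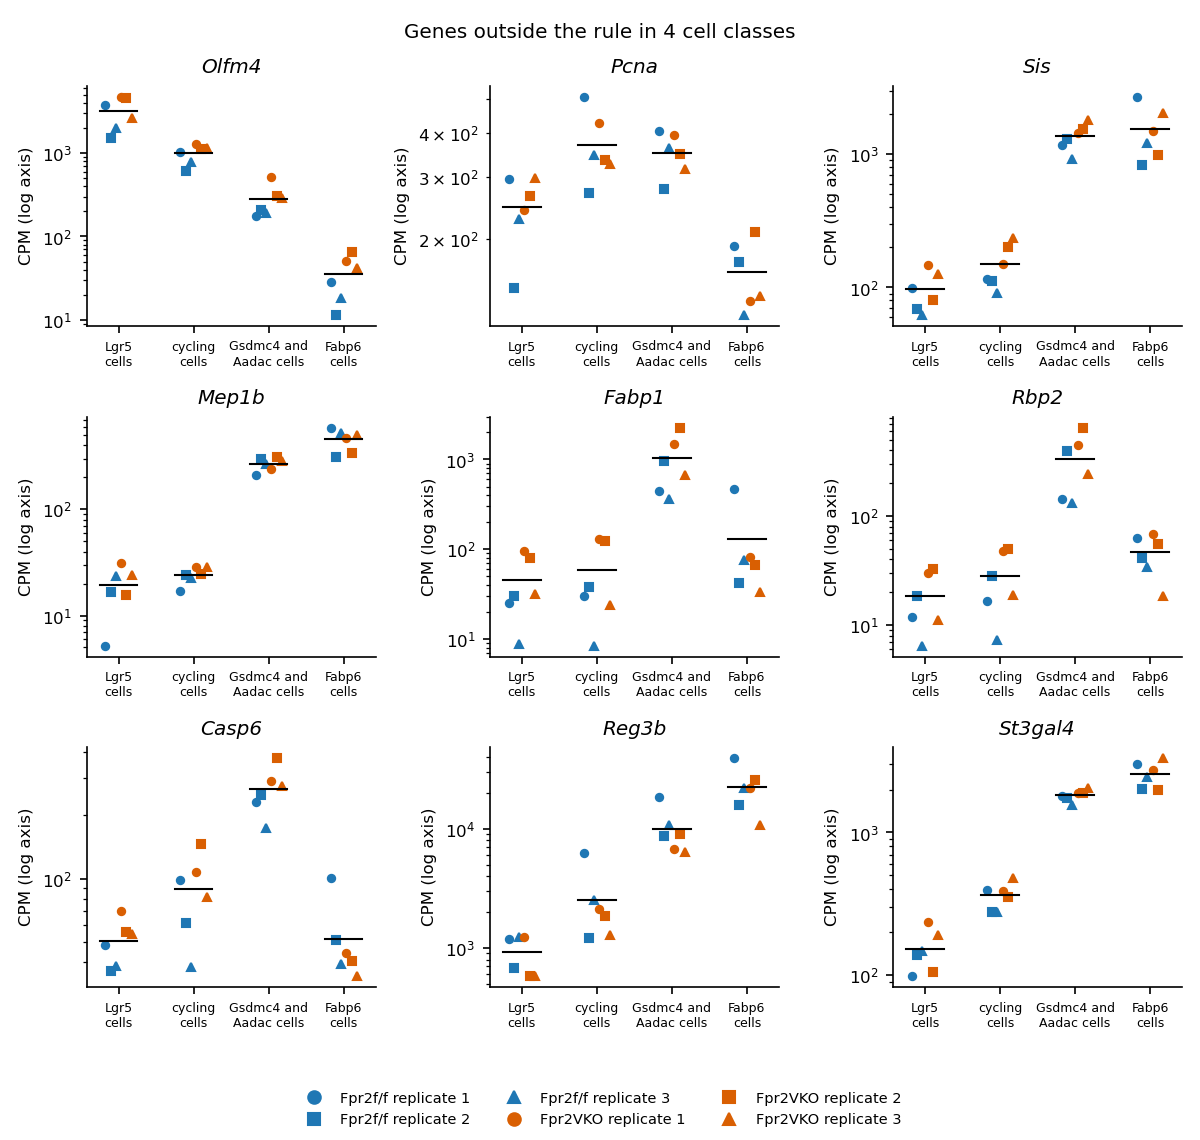
CPM (log axis) of 9 genes outside the rule in Lgr5, cycling, Gsdmc4 and Aadac, and Fabp6 cells; each point is 1 library, black bars are means over 6 libraries. The means of Olfm4 fall from 3197 to 35.9 across the classes, those of Mep1b and Reg3b rise throughout, and those of Fabp1, Rbp2 and Casp6 peak in the Gsdmc4 and Aadac cells.

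The enterocyte part of the name given to these cells, enterocyte progenitors, was borne out by 10 enterocyte markers (Alpi, Apoa1, Apoa4, Fabp1, Fabp2, Sis, Slc5a1, Rbp2, Anpep and Mttp). Together they held 5218 CPM on average in the selected cells, 918 in cycling and 4509 in Fabp6 cells, and 9 of 10 were above the other kept cells in 6 of 6 libraries. The sum holds Fabp1 and Rbp2, which peaked in the selected cells. Wider lists differed in order. Brush border enzymes summed to 3576 in the selected and 4989 in Fabp6 cells, and lipid absorption genes to 4597 and 4180. The progenitor part was less clear. Mitosis genes and Lgr5 were removed by the rule and say nothing. Over 10 S-phase markers the sum was 655, between 882 in cycling and 261 in Fabp6 cells, and over 8 stem cell markers it was 499, between 1541 and 138. Pcna, the sliding clamp of DNA replication, averaged 350.5 ± 48.3 in the selected cells, 368 ± 84.9 in cycling cells and 160.3 ± 35.4 in Fabp6 cells. Olfm4, a stem cell gene, averaged 283 ± 129, 999 ± 254 and 35.9 ± 20.1 in the same order. Lgr5 cells are no pure stem cell class here, since 9 Paneth cell markers held 311742 of every 1000000 UMIs in them.

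RNA of other cell types was present at a low and uneven level. The 9 Paneth markers summed to 317, 11117 and 3954 CPM in the selected cells of Fpr2f/f replicates 1, 2 and 3 and to 452, 2683 and 865 in Fpr2VKO replicates 1, 2 and 3, with none at 0. Defa24, a Paneth defensin, stood at 0.0474 to 0.386 times its level in free RNA. Over 6 goblet markers outside the rule the sum ranged over 119 to 614 CPM in Fpr2f/f and 106 to 139 in Fpr2VKO, and over 9 enteroendocrine markers, of which Neurod1 was at 0, over 25 to 171 CPM in Fpr2f/f and 109 to 269 in Fpr2VKO. The 8 immune markers summed to 3.47 to 6.28 CPM in Fpr2f/f and 8.24 to 14.7 in Fpr2VKO, the 8 tuft markers to 5.39 to 26.5 CPM in Fpr2f/f and 9.53 to 14.6 in Fpr2VKO and the 7 markers of stroma and blood, with Cdh5 at 0, to 0.899 to 1.77 CPM in Fpr2f/f and 1.67 to 2.35 in Fpr2VKO. Artificial-doublet scores were used to mark a number of cells fixed in advance by library size, 0.816% to 1.7% of kept cells. Of the selected cells they marked 0% to 2.16%, or 0 to 5 in each library. These counts thus depend on the fixed number and do not measure how many doublets there were.

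The edge of the rule was not sharp. Of the selected cells 445 had exactly 3 markers, and 452 cells with exactly 2 met every other condition. Enterocyte markers summed to 7683 ± 3365 CPM just inside the rule and to 3832 ± 2918 just outside it, and stem markers to 1063 ± 253 and 2271 ± 603. In the 1081 cells with 4 or more markers the enterocyte sum was 4417 ± 1119 and the stem sum 327 ± 104. Paneth markers summed to 12973 ± 19737 just inside and 59033 ± 55276 just outside, against 676 ± 438 in cells with 4 or more. Fpr2f/f replicate 2 was the highest library on both sides of the edge, and without it the means were 5495 and 37534.

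Among the selected cells the summed markers, mostly Dmbt1, and the absorptive program ran in opposite directions. Cells thinned to 5000 UMIs were split within each library into tertiles by the summed UMIs of the 6 markers, a measure the rule used, so the split describes them and is not a test. Dmbt1 held 671 of the 1142 CPM of the 6 markers in the low and 2299 of 3420 in the high tertile. The split thus follows chiefly Dmbt1, which was as high in cycling cells. Median full depth differed most between tertiles in Fpr2f/f replicate 3, with 36595 UMIs in the low and 32649 in the high tertile. The 16 brush border enzymes summed to 4711 ± 927 in the low to 2532 ± 595 in the high tertile (SD over 6 libraries), the 23 lipid absorption genes to 6165 ± 2651 in the low to 3029 ± 598 in the high tertile and the 8 stem markers to 788 ± 304 in the low to 267 ± 67.5 in the high tertile, each lower in the high tertile in 6 of 6 libraries. By contrast the 28 lineage transcription factors went from 3087 ± 189 in the low to 3380.2 ± 289 in the high tertile and the 20 Wnt pathway genes from 1677 ± 212 in the low to 1916 ± 109 in the high tertile, higher in 6 of 6 libraries. Among single genes, Apoa1, the main protein of high-density lipoprotein, averaged 839 in the low, 314 in the middle and 105 in the high tertile, and Fabp1 1609 in the low, 807 in the middle and 465 in the high tertile. Duox2, an epithelial oxidase that makes hydrogen peroxide, was not in the rule and averaged 109.5 in the low, 143 in the middle and 168 in the high tertile, higher in the high tertile in 6 of 6 libraries. Arg2 averaged 447 in the low, 403 in the middle and 395 in the high tertile, lower in the high tertile in 6 of 6 libraries. RNA of other cells differed between tertiles too. Paneth markers summed to 4400.1 ± 5229 in the low to 790.1 ± 450.2 in the high tertile, lower in the high tertile in 4 of 6 libraries, and the low tertile averaged 2427 without Fpr2f/f replicate 2. Enteroendocrine markers summed to 425 ± 411 in the low to 36 ± 23.3 in the high tertile, lower in 6 of 6 libraries. The part of this RNA in the differences above was not tested.

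**Figure D3:**
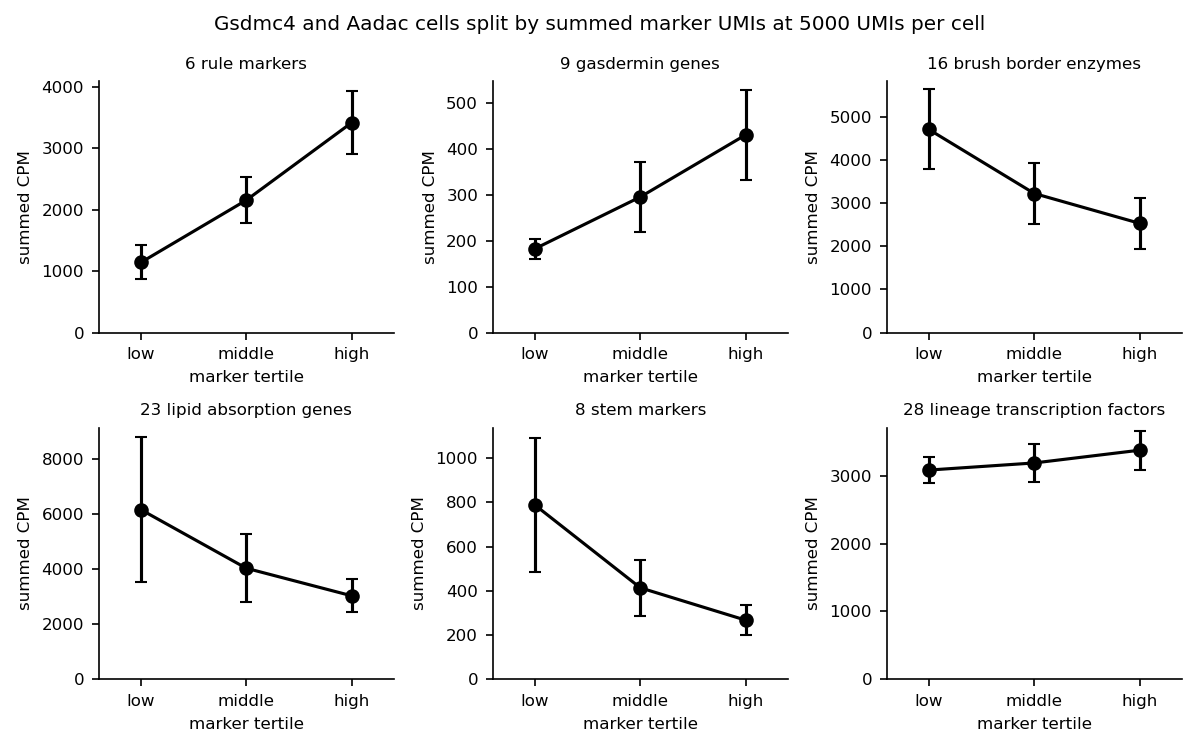
Summed CPM (vertical axis, from 0) of 6 gene lists in the low, middle and high tertile of marker UMIs among Gsdmc4 and Aadac cells at 5000 UMIs a cell; points are means over 6 libraries and bars are SDs. The rule markers and gasdermins rise by construction or kinship with the rule, brush border, lipid and stem genes fall, and the transcription factors rise from 3087 to 3380.2.

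Detection of the markers in the same cells is given as a description, since the rule set it in part. At 5000 UMIs, Gsdmc4 was detected in 58.2% of the selected cells with Gsdmc2 and in 35.3% of those without it (means of 6 libraries, higher with Gsdmc2 in 6 of 6). Akr1c19 was detected in 56.2% of cells with Aadac and 44.4% of those without, higher in 5 of 6. For Aadac and Gsdmc2 the order turned, 27.7% with and 33.7% without Aadac, and it was higher with Aadac in 1 of 6 libraries. A choice of at least 3 of 6 genes can itself set such an order, since a cell that lacks 1 marker must hold others.

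Whether loss of Fpr2 in the epithelium changed how many of these cells there were was asked first. They made up 29.4% (288 of 980; 95% Wilson interval 26.6 to 32.3), 11.0% (232 of 2117; 9.70 to 12.4) and 16.1% (209 of 1302; 14.2 to 18.1) of kept cells in Fpr2f/f replicates 1, 2 and 3. In Fpr2VKO replicates 1, 2 and 3 they made up 15.1% (208 of 1382; 13.3 to 17.0), 24.4% (380 of 1557; 22.3 to 26.6) and 19.3% (209 of 1084; 17.0 to 21.7). All Fpr2VKO shares lay inside the Fpr2f/f range. The means were 18.8% ± 9.52 and 19.6% ± 4.68 (SD, n = 3 each), a difference of 0.779 percentage points (exact two-sided permutation test, p = 1). With 3 libraries against 3 the smallest p this test can give is 0.1, so it could not have passed 0.05 whatever the shares. When the rule was applied to cells thinned to 5000 UMIs the shares were 4.83% ± 2.30 and 5.34% ± 1.82 (exact p = 0.8).

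**Figure D4:**
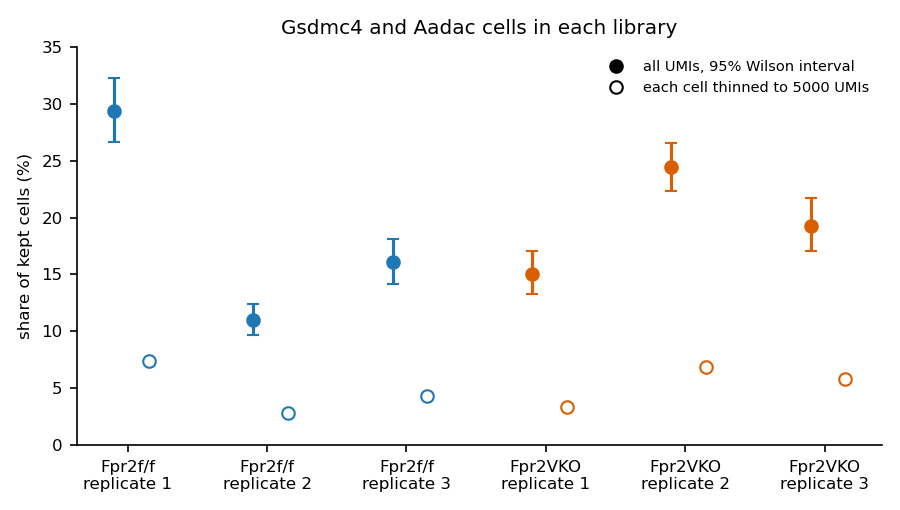
Share of kept cells (%, vertical axis from 0) that were Gsdmc4 and Aadac cells in each of 6 libraries; filled points use all UMIs, with 95% Wilson intervals that cover counting error only, and open points use cells thinned to 5000 UMIs. The 3 Fpr2VKO libraries (15.1% to 24.4%) lie within the range of the 3 Fpr2f/f libraries (11.0% to 29.4%).

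Gene expression between genotypes was tested on UMIs summed over the selected cells of each library, so that libraries and not cells were the replicates. Of 11725 genes tested by edgeR's quasi-likelihood method without pairing, 1 passed an adjusted p of 0.05, or 0.00853% of those tested. It was Mt1, on chromosome 8 (94179082 to 94180327, plus strand), which encodes metallothionein 1, a small protein that binds zinc and copper. Mt1 held 378, 392 and 523 CPM in Fpr2f/f replicates 1, 2 and 3 and 1616, 1631 and 1761 in Fpr2VKO replicates 1, 2 and 3. Every Fpr2VKO library was far above every Fpr2f/f library, with a log2 fold change of 1.94 (SE 0.13, adjusted p = 6.7e-07). Mt2, its neighbour on the same chromosome (94172664 to 94173568, plus strand), held 52, 43.5 and 85.2 CPM in Fpr2f/f replicates 1, 2 and 3 and 49.4, 42.6 and 67.5 in Fpr2VKO replicates 1, 2 and 3, and its log2 fold change was -0.19 (SE 0.26, adjusted p = 0.999).

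Mt1 was also higher in Fpr2VKO in the other cell classes. Its log2 fold change was 2.27 (adjusted p = 5.64e-07) in Fabp6 cells, 1.61 (adjusted p = 0.000211) in cycling cells and 1.84 (adjusted p = 3.62e-06) in Lgr5 cells. In free RNA it stood at 148 to 236 CPM in Fpr2f/f and 865 to 1111 in Fpr2VKO libraries. The selected cells held 1.59 to 2.56 times their library's free level, and what part of the difference within cells came from free RNA was not tested.

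The sequence around the start of Mt1 is shown because it was the sole gene called, and that of Fabp1 because it leads the absorptive genes of these cells and also differed between genotypes in matched libraries. Both are from RefSeq (GRCm38.p6), 5′ to 3′ on the plus strand, from 250 bases before the start to 50 after it, at chr8:94178839-94179138 and chr6:71199629-71199928. In Mt1 capitals mark TGCACNC or TGCGCNC on either strand, the core of the metal response element bound by the zinc-sensing factor MTF1, found 3 times. In Fabp1 capitals mark TTTATNG on either strand, a core of sites bound by the intestinal factor CDX2, found 3 times.
Mt1: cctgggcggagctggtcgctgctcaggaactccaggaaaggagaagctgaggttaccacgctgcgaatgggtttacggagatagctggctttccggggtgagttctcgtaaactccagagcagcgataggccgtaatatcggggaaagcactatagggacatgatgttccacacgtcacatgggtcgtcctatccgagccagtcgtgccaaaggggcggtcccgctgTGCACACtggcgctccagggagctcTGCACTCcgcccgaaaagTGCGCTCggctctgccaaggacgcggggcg
Fabp1: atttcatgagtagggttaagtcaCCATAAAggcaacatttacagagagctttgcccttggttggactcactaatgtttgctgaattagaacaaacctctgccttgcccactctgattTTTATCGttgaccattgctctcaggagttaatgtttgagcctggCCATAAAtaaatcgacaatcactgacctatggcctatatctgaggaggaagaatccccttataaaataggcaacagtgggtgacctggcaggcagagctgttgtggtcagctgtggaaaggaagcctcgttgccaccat
Of 32851 promoter windows of this length, 25.7% held the metal response core at least once and 1.97% at least 3 times, and 10.9% held TTTATNG at least once and 0.0639% at least 3 times. Among the 25 leading genes, 20 had a window, and 6 of these held TTTATNG (Adh6a, Car4, Fabp1, Rbp2, Reg1 and Sis). A match is a description of letters and not a bound site.

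Libraries with the same replicate number deviated together from their group means across genes, so the fit with the replicate number as a block is given beside the unpaired one. The deviations were taken from the same counts that the fit then tested. They therefore cannot establish that the libraries were matched. With the block 152 of 11725 genes passed an adjusted p of 0.05 in the selected cells, 93 higher in Fpr2VKO (0.793% of genes tested) and 59 lower (0.503%), and Mt1 stayed among them. All 93 were higher and all 59 lower in 3 of 3 pairs. The fit that called them used these same pairs, so this agreement is no further support. The labels do not say what the numbers share, and no gene but Mt1 passed in the unpaired edgeR fit (35 genes by unpaired DESeq2). Every such call below is from the paired fit.

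The genes higher in Fpr2VKO included several that lead the profile of these cells. Leading genes were picked on means over both genotypes, so a gene could enter that list through Fpr2VKO. Part of this overlap may therefore be built in. Reg1, a secreted lectin of the regenerating islet family and the leading gene of these cells, held 128, 216 and 37 CPM in Fpr2f/f replicates 1, 2 and 3 and 741, 916 and 186 in Fpr2VKO replicates 1, 2 and 3. The groups overlapped, yet each Fpr2VKO library was several times above its paired Fpr2f/f library, with a log2 fold change of 2.30 (SE 0.11, adjusted p = 3.5e-13) with the block and 2.26 (SE 0.99, adjusted p = 0.918) without it. Without the block the log2 fold change of Reg1 was 0.60 with a mitochondrial limit of 10% and 2.91 without Fpr2f/f replicate 2. Fabp1 held 441, 969 and 363 CPM in Fpr2f/f replicates 1, 2 and 3 and 1476, 2271 and 671 in Fpr2VKO replicates 1, 2 and 3, again higher in each pair with overlapping groups (log2 fold change 1.28, SE 0.16, adjusted p = 0.0132 with the block). Fabp2, the intestinal fatty acid-binding protein, held 668, 992 and 696 CPM in Fpr2f/f replicates 1, 2 and 3 and 1219, 1474 and 1132 in Fpr2VKO replicates 1, 2 and 3. Its groups did not overlap (log2 fold change 0.70, SE 0.09, adjusted p = 4.65e-05 with the block, adjusted p = 0.363 without). Arg2 held 313, 368 and 312 CPM in Fpr2f/f replicates 1, 2 and 3 and 496, 574 and 500.5 in Fpr2VKO replicates 1, 2 and 3, with no overlap of groups and a log2 fold change of 0.65 (SE 0.09, adjusted p = 0.000179).

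Genes of retinol and alcohol conversion were also among those higher in Fpr2VKO. Adh1, an alcohol dehydrogenase that also oxidizes retinol, held 41.6, 115 and 49.6 CPM in Fpr2f/f replicates 1, 2 and 3 and 114, 275 and 93.6 in Fpr2VKO replicates 1, 2 and 3 (log2 fold change 1.20, SE 0.11, adjusted p = 3.27e-07). Rdh7, a retinol dehydrogenase, held 11.3, 26.4 and 14.5 CPM in Fpr2f/f replicates 1, 2 and 3 and 39.7, 56.5 and 37.6 in Fpr2VKO replicates 1, 2 and 3 (log2 fold change 1.39, SE 0.14, adjusted p = 1.51e-06), and Adh6a and Aldh1a1 had log2 fold changes of 1.21 and 0.88. In the list of retinoid handling 3 of 14 tested genes were higher and 0 lower, with a median log2 fold change of 0.14 against 0.01 over all 11725 genes. Of all genes tested 0.793% were called higher and 0.503% lower. Rbp7, on which the rule chose the cells, is among these 14 and in their median. Rbp2, in the same list, was 142, 397 and 130.3 CPM in Fpr2f/f replicates 1, 2 and 3 and 448, 648 and 245 in Fpr2VKO replicates 1, 2 and 3 and did not pass (log2 fold change 1.08, SE 0.20, adjusted p = 0.102). Of the largest changes with a mean of at least 20 CPM over both genotypes, the others were Mme, the peptidase neprilysin (1.52), Maob, a monoamine oxidase (0.92), the mitochondrial carrier Slc25a45 (0.89) and F3, tissue factor (0.88). Without the block, leaving out Fpr2f/f replicate 2 moved the log2 fold change of Adh1 from 1.22 to 1.85, of Fabp1 from 1.31 to 1.89 and of Mme from 1.46 to 2.22. Leaving out Fpr2VKO replicate 2 moved that of Adh1 to 0.56, of Fabp1 to 0.83 and of Mme to 0.96. Among Mme, Maob, Slc25a45 and F3, Maob came nearest to passing in the edgeR fit without the block (adjusted p = 0.0746).

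**Figure D5:**
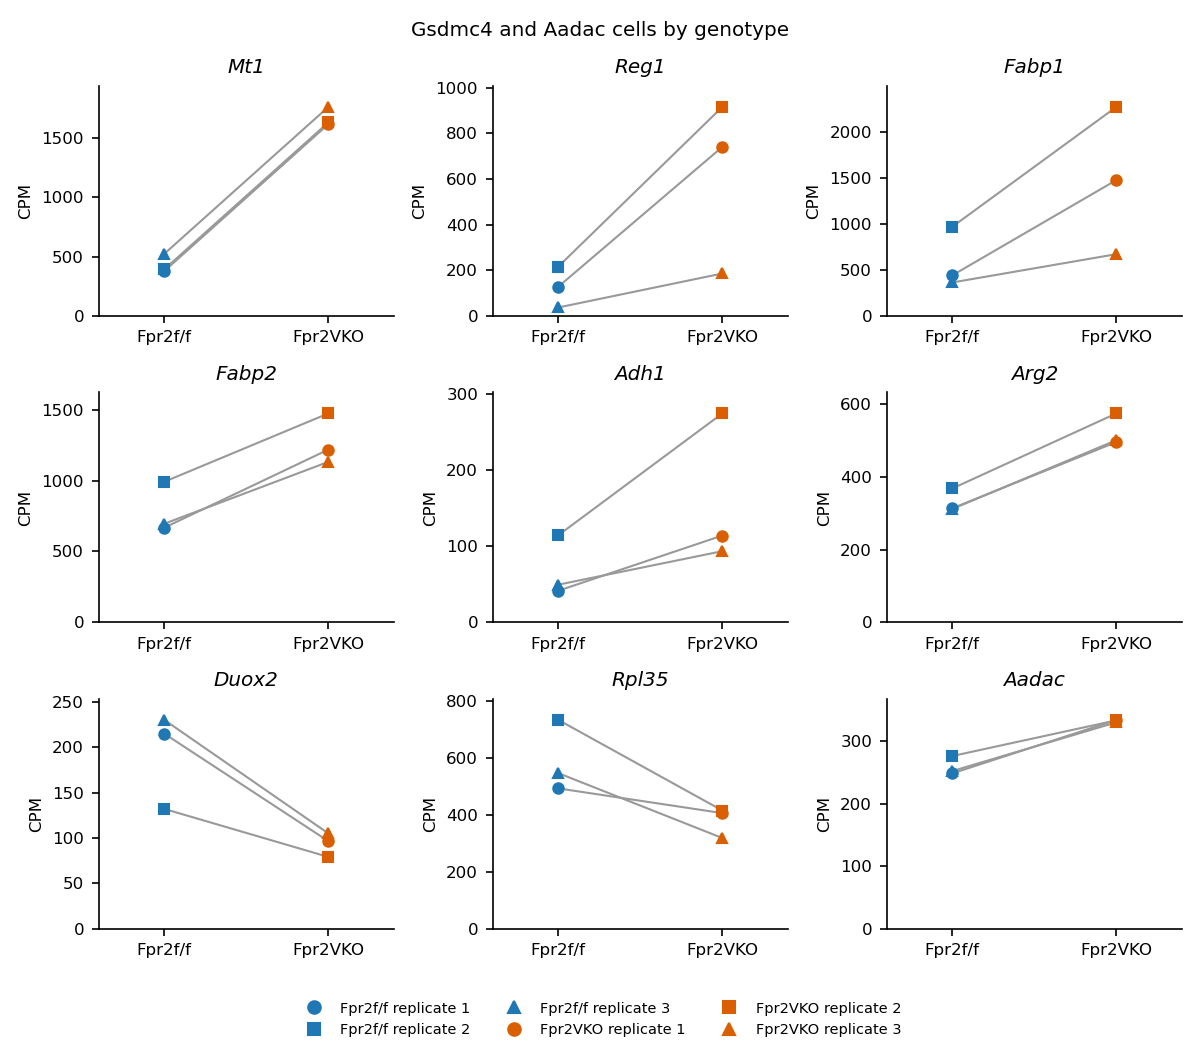
CPM (vertical axis, from 0) of 9 genes in Gsdmc4 and Aadac cells of each library by genotype; grey lines join libraries with the same replicate number. Mt1 separates the groups without the pairs. Reg1, Fabp1 and Adh1 overlap between groups but are higher in the Fpr2VKO library of each pair, and Duox2 and Rpl35 are lower in each. Aadac, a rule marker whose test is not reported for that reason, is higher in each.

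Other lists of enterocyte function held more genes called higher than the 0.793% over all genes. The lists were chosen with earlier results of these data known, so the list counts in this report are a description and not a test. Among detoxification enzymes 10 of 33 were higher, Cyp2b10, Cyp2c65, Cyp2d26, Cyp3a13, Cyp4v3, Ugt2b5, Gstm1, Sult1b1, Sult1d1 and the exporter Abcc2, and 1 was lower, Gstp1 (list median 0.39). Among lipid absorption genes 4 of 23 were higher, Fabp1, Fabp2, the apolipoprotein gene Apoc3 (0.85) and the lipid-regulating factor Creb3l3 (0.83), with a median of 0.30. Among brush border enzymes 3 of 16 were higher, among them the peptidases Anpep (0.57) and Mme (list median 0.45), and among nutrient transporters 4 of 19, the peptide carrier Slc15a1, the sugar carrier Slc2a2 and the amino acid carriers Slc6a19 and Slc6a20a (median 0.23). The interferon response list had 3 of 17 higher (Ddx60, Oasl2 and Rtp4, median 0.34). Esterases, aldo-keto reductases and oxidases had 2 of 22 higher (Ces1f and Maob, median 0.35). Aadac and Akr1c19, on which the rule chose the cells, are among these 22 and in their median. Microvillus structure had 1 of 16 higher (Vil1, median 0.10) and polyamine and arginine genes 1 of 11 (Arg2, median -0.10). No gene passed of 28 lineage transcription factors (median 0.05), 15 of antigen presentation (-0.02), 18 of stress and immediate early response (0.12), 16 stem cell genes (0.12) or 6 of bile acid handling (-0.10).

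The summed enterocyte markers moved with these genes, over 3229 to 5263 CPM in Fpr2f/f and 5305 to 7974 in Fpr2VKO, as did the immune markers above, whose ranges did not overlap either, and the 8 stem markers, over 382 to 403 CPM in Fpr2f/f and 491 to 803 in Fpr2VKO. The enterocyte sum holds Anpep, Fabp1 and Fabp2, called above, so its move is not a separate observation. Of the tested immune markers 1 of 2 passed, Cd52, a surface peptide of lymphocytes, and of the stem markers 0 of 7 passed. The shares called over all genes tested were 0.793% higher and 0.503% lower. Replicate 2 of both groups was high for Fabp1, Adh1, Rbp2 and Apoc3, and replicate 3 of both groups was low for Reg1. The median share of mitochondrial UMIs in the selected cells was 12.3%, 11.7% and 12.9% in Fpr2f/f replicates 1, 2 and 3 and 13.9%, 13.1% and 14% in Fpr2VKO replicates 1, 2 and 3, so it did not overlap between the groups and was higher in Fpr2VKO in each pair. With a mitochondrial limit of 10%, which left 14 to 63 selected cells a library, 1 gene passed in the paired fit in place of 152. The part that the marker and mitochondrial differences had in the gene calls was not tested.

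The genes lower in Fpr2VKO included an oxidase and ribosomal protein genes. Duox2 held 215, 132 and 230.1 CPM in Fpr2f/f replicates 1, 2 and 3 and 96.6, 79.2 and 105 in Fpr2VKO replicates 1, 2 and 3. Its groups did not overlap, and the log2 fold change was -1.02 (SE 0.11, adjusted p = 1.51e-06) with the block and -1.05 (SE 0.18, adjusted p = 0.124) without it. Duoxa2, the factor Duox2 needs to mature and its neighbour on chromosome 2, held 52.6, 36.7 and 42.3 CPM in Fpr2f/f replicates 1, 2 and 3 and 37.2, 22.1 and 23.1 in Fpr2VKO replicates 1, 2 and 3 (log2 fold change -0.70, SE 0.12, adjusted p = 0.00244). Without the block its log2 fold change was -0.69 (edgeR adjusted p = 0.494), -0.13 in thinned cells and 0.26 with a mitochondrial limit of 10%. Duox2, Duoxa2 and Ceacam1, an adhesion protein (-0.41), were 3 of 18 tested genes of enterocyte defence called lower, beside 0.503% over all genes, and 0 were higher (median -0.000938). Reg3b and Reg3g, the most abundant of that list, had log2 fold changes of -0.73 (SE 0.42, adjusted p = 0.832) and -0.86 (SE 0.32, adjusted p = 0.694). Rpl35 held 494, 734 and 547 CPM in Fpr2f/f replicates 1, 2 and 3 and 407, 416 and 319 in Fpr2VKO replicates 1, 2 and 3 (log2 fold change -0.64, SE 0.11, adjusted p = 0.00187). Over cytosolic ribosomal protein genes matched by symbol 11 of 80 were lower, beside 0.503% of all genes tested, and 0 higher, with a median of -0.07. Of 7 ribosomal genes that the study picked on these libraries, as lower in immature cells, 5 were lower. It picked 8 further genes on them in immature cells and reported all but Olfm4 as lower there and Olfm4 as higher. Of these 8 genes 2 were lower here (Ccnb1ip1 and Lars2) and 0 higher. Neither count is independent evidence of the direction of these genes.

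The other lower genes of the largest changes were Defa34 (-4.55), Gstp1, a glutathione transferase (-0.82), Zfp949 (-0.79), Ndufs5, a subunit of respiratory complex I (-0.72), the RNA-binding protein gene Lsm3 (-0.71), Hk2, a hexokinase (-0.68), the noncoding RNA Snhg6 (-0.68) and Tmsb10, an actin-binding thymosin (-0.67). Defa34 is a Paneth defensin with close copies and held 2.44, 44.6 and 72.9 CPM in Fpr2f/f replicates 1, 2 and 3 and 0.706, 1.85 and 2.12 in Fpr2VKO replicates 1, 2 and 3, at 0.0355 to 0.675 times its free RNA level. Without the block its log2 fold change was -4.67, -2.88 in cells with at least 2 markers, -1.26 in those with at least 4 and -3.97 without Fpr2f/f replicate 3. It was high in the 2 Fpr2f/f libraries whose selected cells had the most Paneth RNA, and the part of that RNA in its call was not tested.

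The 6 rule markers are given as values and no test of any of them is reported, because a cell needs these genes to be selected. They were among the 11725 genes fitted, and Aadac, Akr1c19 and Rbp7 are counted in the lists above. Aadac held 249, 276 and 252 CPM in Fpr2f/f replicates 1, 2 and 3 and 334, 333 and 330.2 in Fpr2VKO replicates 1, 2 and 3, with every Fpr2VKO library above every Fpr2f/f library. Gsdmc2 held 101, 78.5 and 97.7 CPM in Fpr2f/f replicates 1, 2 and 3 and 55.5, 62.5 and 93.4 in Fpr2VKO replicates 1, 2 and 3, lower in the Fpr2VKO library of each pair with overlapping groups. Gsdmc4 held 167, 115 and 187 CPM in Fpr2f/f replicates 1, 2 and 3 and 117, 108 and 182 in Fpr2VKO replicates 1, 2 and 3, and its groups overlapped.

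Receptors and signalling genes of interleukin 4 and 13, which act on gasdermin C genes in the gut epithelium, were tested as a list. By edgeR 0 of 5 passed, without or with the block. Of all genes, 691 had an unadjusted p under 0.05 without the block and 1083 with it. Il13ra1 had a log2 fold change of 0.06 (SE 0.10, adjusted p = 0.957) and Stat6 of 0.07 (SE 0.11, adjusted p = 0.949). None of 20 S-phase genes, 16 further mitosis genes, 10 Notch or 8 Hippo genes passed in the paired fit, and in the Wnt list 1 of 17 was lower, Ccnd1, a cyclin of the G1 phase (log2 fold change -0.43, SE 0.10, adjusted p = 0.019). Over all genes tested 0.793% were higher and 0.503% lower in that fit.

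Whether the genotype acted differently on the selected cells than on their neighbours was tested directly, with a term for each library. Of 11688 genes 0 differed in their genotype effect between the selected and Fabp6 cells, and of 12485 genes 0 between the selected and cycling cells (edgeR, adjusted p of 0.05; 330 and 563 had an unadjusted p under 0.05, and 0% were called in each). Mt1 had a difference of log2 fold changes of -0.34 against Fabp6 cells and 0.31 against cycling cells (adjusted p = 1 and 0.671). For Reg1 the difference was 2.34 and 2.12 (adjusted p = 1 and 0.998), and for Fabp1 2.34 and -0.44, none of which passed. So no genotype difference was shown to be particular to the Gsdmc4 and Aadac cells.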

How the data were processed

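Per the labels and the study's methods, ileal crypt cells sorted by EpCAM were captured on the MobiNova-100 platform, and the authors aligned reads to mm10 and counted UMIs with MobiVision. The deposited matrices hold raw UMI counts for 32285 genes and 2359296 barcodes a library, before any cell calling. The annotation version is not given in the sources used here. The submitters' processing notes name Seurat 4.0.0 and 4.0, used after these matrices. Of the deposited counts, cells were selected by the rule in the report, and counts of each class were summed per library (3 libraries a group, from 3 mice per group by the study's legends). Sums were tested with edgeR 4.0.16 (R 4.3.3; TMM, filterByExpr, robust quasi-likelihood fit, Benjamini-Hochberg over all genes tested). Shares were compared by exact permutation (scipy 1.17.1). The members and gene lists were chosen with earlier results of these data known. The cell-level test of the study, which counts cells as replicates, was not used.

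Same-numbered libraries deviated together in the selected cells (correlations across 11725 genes of 0.113, 0.245 and 0.182 for pairs 1, 2 and 3), each over 0.1, so the numbers were taken as pairs; the pairing comes from the titles. Named genes were the rule genes, the listed genes, up to 10 called in each direction with the largest fold change and a mean of at least 20 counts per 1000000 (CPM), and the 25 leading genes. The size rule was also applied to the paired calls. Genes with 2 rows under the same symbol were read at the first row. Doublets were scored with 25% artificial doublets and kept in the main analysis. The fits were tested on simulated data. Alternatives covered normalization (DESeq2 1.42.0 size factors and test among them), filters, depth, doublets, the rule's limits and each library left out. Some genes of the lists are not reported here.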

Additional observations from a re-analysis of the deposited data

How the results depend on the processing

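The difference in the share of Gsdmc4 and Aadac cells, 0.779 percentage points, changed sign with a mitochondrial limit of 10% (-3.56 points) and with a UMI minimum of 10000 (-1.03), grew to 4.89 over cells meeting all exclusions (39.7% against 44.5%) and to 1.76 with a UMI minimum of 3000, and ran from -3.14 to 6.07 when 1 library was left out, negative without Fpr2f/f replicate 2 (-3.14) or 3 (-0.594) or Fpr2VKO replicate 2 (-1.63). Groups overlapped in every alternative run. The count of 1 gene between genotypes became 150 with no filter on low counts, 152 with the replicate block, 35 with DESeq2, 3 with a mitochondrial limit of 40%, 2 with at least 2 markers, 5 with at least 4 markers and 6 in cells thinned to 5000 UMIs; with 1 library left out it ran from 1 to 34, with 34 without Fpr2f/f replicate 2, 7 when its replicate 1 was dropped, 5 without Fpr2VKO replicate 3 and 3 without Fpr2VKO replicate 2. Mt1 passed in all 17 alternatives. The causes were not tested. The paired count of 152 became 100 with DESeq2, 83 with a mitochondrial limit of 40%, 30 in thinned cells (4683 genes tested) and 1 with a limit of 10% (14 to 63 cells a library), and ran from 131 to 293 with 1 pair left out (293 without pair 1 and 291 without pair 2); of the 152 genes, 31 were also called by unpaired DESeq2 and 96 by paired DESeq2. These alternatives to the paired fit were chosen after seeing the data. The interaction counts of 0 became 9 (Fabp6 cells) and 25 (cycling cells) with no filter, 4 and 2 in thinned cells, stayed 0 with the replicate block, and ran from 0 to 11 (11 without Fpr2f/f replicate 2) and from 0 to 40 (40 without Fpr2f/f replicate 1) with 1 library left out. Of 20 named genes over 333 results, 2 changed sign, both with a mitochondrial limit of 10%: F3 (-0.18) and Duoxa2 (0.26). Maob moved from 0.90 to 0.31 with that limit, and in thinned cells Slc25a45 from 0.85 to 0.25, Duoxa2 from -0.69 to -0.13 and Zfp949 from -0.80 to -1.51. Paralogs, free RNA and the depth that the rule favours limit what the levels show.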
